A study of Mus musculus with 9 samples.

Results

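Carboxylesterases are serine hydrolases that split esters, amides and thioesters, and the mouse genome carries them as a family of tandemly duplicated genes. Most are held in the lumen of the endoplasmic reticulum of hepatocytes, where they hydrolyse drugs and other xenobiotics, and several also act on triacylglycerol, diacylglycerol or cholesteryl esters. In the liver they are known for this hydrolysis of stored neutral lipid and for feeding fatty acids into lipoprotein assembly. The genes described here are 10 members of the family, namely Ces1b, Ces1c, Ces1d, Ces1e, Ces1f, Ces1g, Ces2a, Ces3a, Ces3b and Ces4a, out of 18 carboxylesterase genes and 17846 genes in the tables. They were picked by symbol, through their Entrez Gene identifiers, with their values in these mice already known, so their levels and differences are a description and carry no test.

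The livers came from male WT mice of the strain labelled C57/BL (C57BL/6 in the methods of the study), 3 mice per group, with 1 mRNA library per mouse. Control mice were fed a normal chow diet. NASH mice were sedentary and received the Ath diet, an atherogenic diet with cholesterol and cholate that induces non-alcoholic steatohepatitis (NASH), for 20 weeks. NASH+Exercise mice received the Ath diet and, after 12 weeks of it, were trained on a treadmill for 8 weeks. The mice were fasted overnight before the liver was taken, and they were adult when training began. There was no trained group on chow, so training is seen only on the Ath diet. Replicate numbers are those of the sample titles, 3, 4 and 29 in Control, 5, 19 and 20 in NASH, and 8, 18 and 22 in NASH+Exercise, and values per mouse are given in that order.

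Each library held between 20086004 and 22495449 estimated read counts. Levels of different genes are compared in TPM, which is corrected for transcript length. Differences between groups are given in CPM, counts scaled to the library total after TMM normalization between libraries, and as log2 fold changes with their standard error (SE) from a single edgeR fit of all 9 mice. The TMM factors of the Control libraries ran from 0.80 to 0.976, those of NASH from 1.09 to 1.23 and those of NASH+Exercise from 0.912 to 1.08. With library size in place of TMM, the median over all genes moved from 0.013 to 0.36 (log2) for NASH against Control and from -0.03 to -0.24 for NASH+Exercise against NASH, and with TPM to 0.34 and -0.26. A member whose change is no larger than that shift can therefore change its sign with the scaling, and each such member is named where it is described. Of 8 hepatocyte markers, 7 were in the tables, among them albumin, and their summed level was 126017 to 147361 CPM in Control, 81705 to 112290 CPM in NASH and 93910 to 117142 CPM in NASH+Exercise.

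All 10 members lie on chromosome 8 (GRCm38.p6), in 2 blocks that are 11198.1 kb apart. The first block, chr8:93020214-93535879, spans 515.7 kb on the minus strand and holds 9 genes of the family, among them the 6 Ces1 members. The second, chr8:104734003-105150109, spans 416.1 kb on the plus strand and holds 11, among them Ces2a, Ces3a, Ces3b and Ces4a. In the first block the members follow each other as Ces1b (Entrez Gene 382044, chr8:93056725-93080017), Ces1c (13884, chr8:93099015-93131283), Ces1d (104158, chr8:93166072-93197804), Ces1e (13897, chr8:93201218-93229631), Ces1f (234564, chr8:93256236-93279766) and Ces1g (12623, chr8:93302369-93337209). In the second block they are Ces2a (102022, chr8:104734003-104741634), Ces3a (382053, chr8:105048576-105061928), Ces3b (13909, chr8:105083733-105093929) and Ces4a (234677, chr8:105131800-105150109). Their GENCODE transcripts have 12 to 14 exons and 1828 to 2433 bases.

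The members are close copies, which bears on how reads were divided among them. The transcripts of Ces3a and Ces3b were identical at 95.4% of the aligned bases, those of Ces1b and Ces1c at 88.9% and those of Ces1d and Ces1g at 81.7%, whereas Ces4a reached at most 67% with any member. Of all stretches of 50 bases in a transcript, 30.9% of those of Ces3a also occurred in Ces3b, and 26.1% of those of Ces3b occurred in Ces3a. For Ces2a the shared part was 22.2%, nearly all of it with the gene model Gm7208, for Ces1c it was 17% and for Ces1b 11.6%. The other 5 members shared 3.21% or less, and Ces4a shared none. Levels of Ces3a against Ces3b, of Ces1b against Ces1c, and of Ces2a are thus less certain than the rest.

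**Figure D1:**
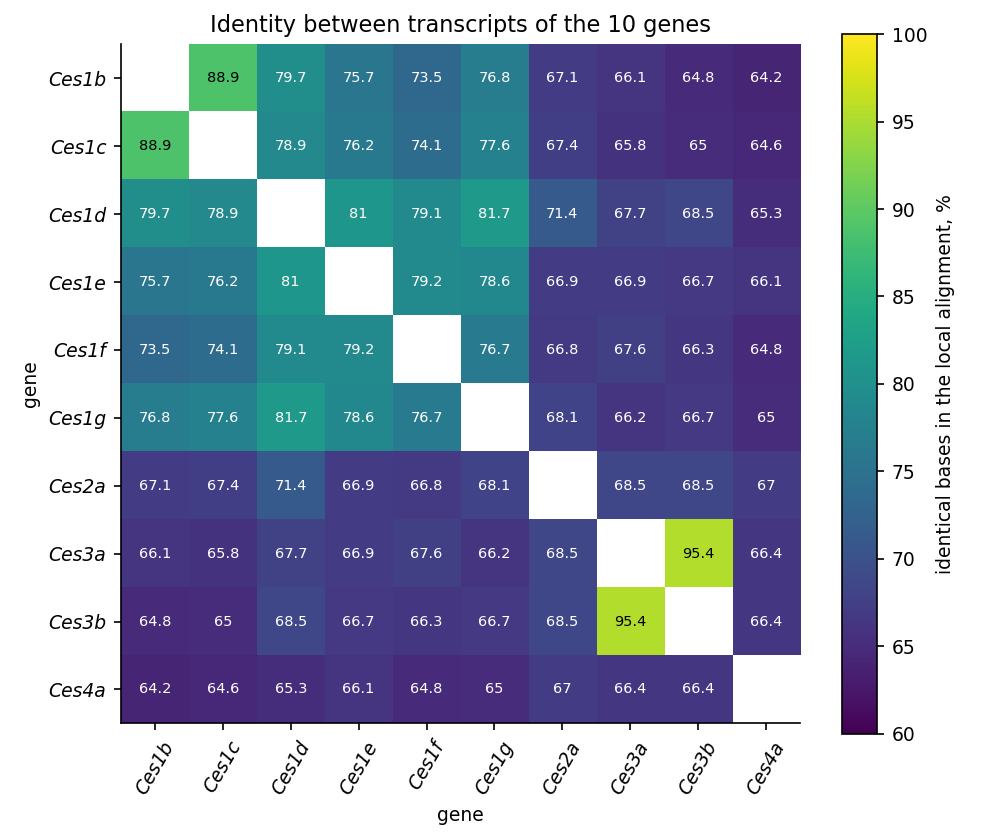
Percent of identical bases in the best local alignment between the transcripts of each pair of the 10 genes, as colour and number; both axes list the genes. Ces3a with Ces3b (95.4%) and Ces1b with Ces1c (88.9%) stand above all other pairs, and the 6 Ces1 genes form a block of 73.5% or more.

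Promoter sequences of RefSeq (GRCm38.p6) were at hand for 7 members and missing for Ces1d, Ces1f and Ces3a. Those of Ces1b and Ces1c are shown because these neighbours have similar promoter windows and unequal changes on the Ath diet. Whether the promoters bear on these changes was not tested. Over windows from 250 bases before to 50 bases after the start, 270 bases could be aligned, of which 254 were identical, with 27 bases in gaps (85.5%). RefSeq has 2 starts for Ces1b, and these values are for the one inside the gene as annotated, so a part of the bases printed for Ces1b lies within the gene. From the outer start, 186 bases could be aligned with Ces1c and 179 were identical, with 16 in gaps (88.6%). The 250 bases before the start are printed 5′ to 3′ on the strand of the gene, for Ces1b from chr8:93079941-93080190 and for Ces1c from chr8:93131284-93131533, both on the minus strand. Capitals mark bases that differ between them, fall into a gap or lie outside the alignment.
Ces1b: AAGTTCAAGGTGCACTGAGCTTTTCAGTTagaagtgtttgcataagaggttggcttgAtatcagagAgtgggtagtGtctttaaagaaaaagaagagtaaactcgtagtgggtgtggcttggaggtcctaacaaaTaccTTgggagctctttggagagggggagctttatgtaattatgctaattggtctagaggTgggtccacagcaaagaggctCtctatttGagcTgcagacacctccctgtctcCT
Ces1c: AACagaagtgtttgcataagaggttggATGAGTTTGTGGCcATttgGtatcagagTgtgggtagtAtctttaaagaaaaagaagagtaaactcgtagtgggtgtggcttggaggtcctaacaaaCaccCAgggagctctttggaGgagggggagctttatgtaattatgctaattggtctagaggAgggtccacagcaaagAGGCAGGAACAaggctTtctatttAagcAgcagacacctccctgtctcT

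For a description of these windows, 5 short patterns were searched on both strands, TATAAA (the core promoter box), CAAAGTCCA (an HNF4A core), TTCNNNGAA (a STAT5 GAS element), TGACNNNGC (an antioxidant response core) and TTGCNNAA (a C/EBP core). In the order given they occurred in 13.6%, 0.475%, 8.3%, 12.4% and 10.8% of 32851 promoters of the same length. Ces1b and Ces1c share the C/EBP letters TTGCATAA, which begin 213 bases before the inner and 136 bases before the outer start of Ces1b, and 239 bases before the start of Ces1c. Ces2a has 2 matches to the C/EBP pattern, and Ces1g has the core promoter box on the reverse strand, which begins 26 bases before the start. No HNF4A, STAT5 or antioxidant pattern was found in these windows of the 7 members, which says only that these letters are absent there. The promoters of Ces3b and Ces4a are shown as well, because these genes had the larger differences between trained and sedentary mice. They come from chr8:105083505-105083754 and chr8:105131550-105131799 on the plus strand. Capitals mark the core promoter box that begins 30 bases before the promoter start of Ces3b and a C/EBP match that begins 100 bases before that of Ces4a. The promoter start of Ces3b lies inside the gene as annotated, which begins at chr8:105083733, so the last bases printed for Ces3b lie within the gene.
Ces3b: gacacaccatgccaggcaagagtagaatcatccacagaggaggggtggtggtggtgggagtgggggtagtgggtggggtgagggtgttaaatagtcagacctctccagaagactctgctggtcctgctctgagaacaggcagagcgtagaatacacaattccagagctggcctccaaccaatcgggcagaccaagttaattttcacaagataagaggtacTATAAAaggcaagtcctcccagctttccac
Ces4a: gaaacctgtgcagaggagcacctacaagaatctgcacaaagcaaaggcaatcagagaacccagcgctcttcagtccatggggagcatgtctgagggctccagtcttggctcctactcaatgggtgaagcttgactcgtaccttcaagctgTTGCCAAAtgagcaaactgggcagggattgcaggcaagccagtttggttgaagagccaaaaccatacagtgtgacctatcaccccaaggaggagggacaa

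In Control liver the carboxylesterases were abundant, and a pair of them made up most of the total. Ces1c, whose product is the main carboxylesterase of mouse plasma, had the highest level with 2189 ± 137 TPM (SD, n = 3), or 39.7% of the 10 genes together. Ces3a, a liver carboxylesterase of the second block, followed with 1495 ± 175 TPM (SD, n = 3) and 27.1%. Ces1d, the enzyme also called triacylglycerol hydrolase, was the next with 639 ± 175 TPM (SD, n = 3) and 11.6%. Each of these was clear of its neighbour in the order in all 3 mice. Ces1f, Ces2a and Ces3b came next with 307, 301 and 284 TPM on average and overlapping ranges. Below them Ces1e, Ces1g and Ces1b averaged 108, 105 and 79.8 TPM, and neighbours in that order overlapped too. Ces4a was the lowest with 0.84 ± 0.20 TPM (SD, n = 3), from 23 to 30 counts per mouse.

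The order of levels differed between the groups. In NASH, Ces1c (1859 ± 202 TPM, SD, n = 3) and Ces3a (1411 ± 208 TPM, SD, n = 3) kept the first places. Ces3b, Ces1d, Ces2a, Ces1g and Ces1f followed with average levels from 244 down to 107 TPM, each overlapping the next. In NASH+Exercise, Ces3a (2011 ± 152 TPM, SD, n = 3) stood above Ces1c (1686 ± 91.9 TPM, SD, n = 3) with no overlap, and Ces3b (424 ± 56.4 TPM, SD, n = 3) was clear of the genes below it. The ratio of Ces3a to Ces1c in TPM was 0.621, 0.758 and 0.671 in the Control mice, 0.605, 0.9999 and 0.717 in the NASH mice and 1.06, 1.17 and 1.36 in the trained mice. This ratio does not depend on the scaling between libraries, and it was higher in all 3 NASH+Exercise mice than in any other mouse.

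Summed over the 10 genes, the level was 5582, 6018 and 4927 TPM in Control, 4410, 4000 and 4208 TPM in NASH and 4812, 4777 and 4928 TPM in NASH+Exercise. All NASH mice lay below the mice of both other groups, while the highest NASH+Exercise mouse and the lowest Control mouse were level with each other. The sum was 0.551% of all TPM in Control mice, 0.421% in NASH mice and 0.484% in the trained mice. The parts of that sum moved differently. Ces1b, Ces1d, Ces1e and Ces1f together averaged 1133 ± 207 TPM in Control, 381 ± 89.7 TPM in NASH and 443 ± 99.9 TPM in NASH+Exercise (SD, n = 3 each). Ces3a and Ces3b together, whose sum hardly depends on how shared reads were divided, averaged 1779 ± 196, 1655 ± 163 and 2435 ± 161 TPM (SD, n = 3 each). In CPM after TMM the same pair averaged 2236 ± 625, 1468 ± 21.3 and 2699 ± 468 (SD, n = 3 each), where NASH was further below Control and the trained mice overlapped with Control. The sum of all 10 genes in CPM was 7107 ± 1744, 3897 ± 458 and 5507 ± 687 (SD, n = 3 each), a larger difference between Control and NASH than in TPM.

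**Figure D2:**
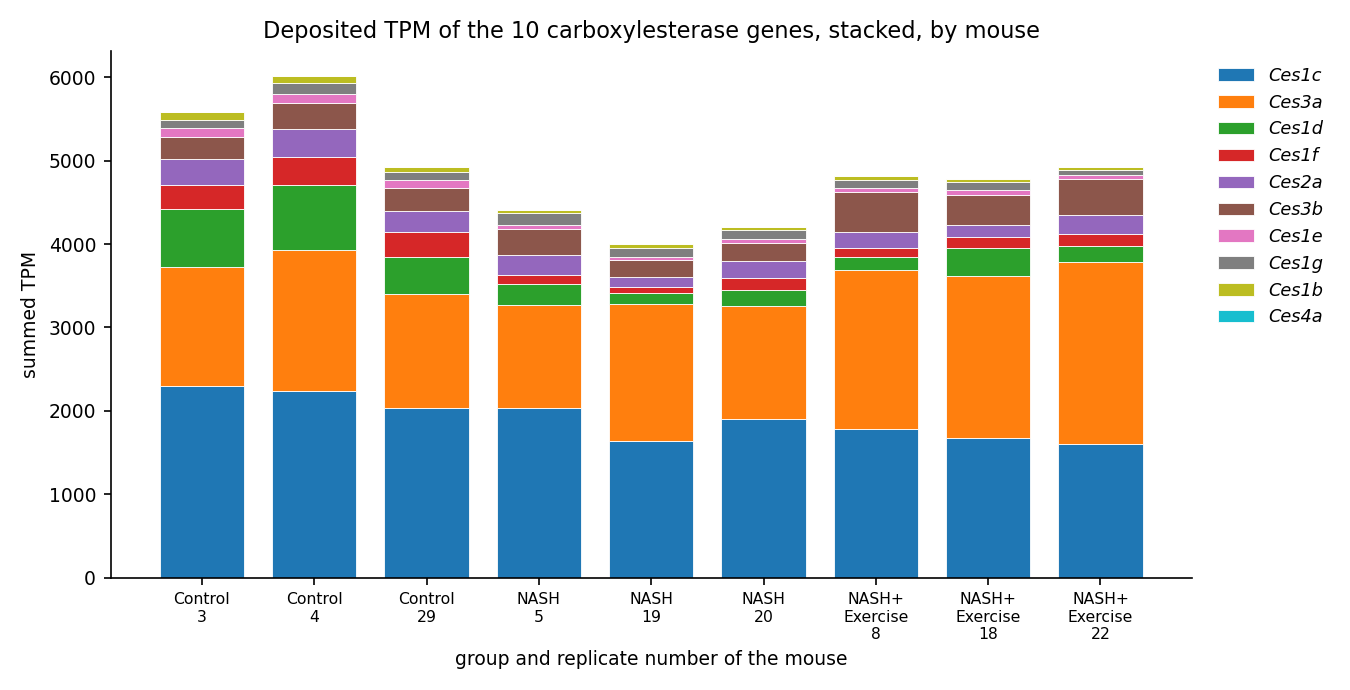
Deposited TPM of the 10 genes stacked for each of the 9 mice, with the group and replicate number below each bar; colours stand for genes. The sum is 4927 to 6018 TPM in Control mice, 4000 to 4410 in NASH mice and 4777 to 4928 in trained mice, with a smaller Ces1d segment in both Ath diet groups and a larger Ces3a segment after training.

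The first comparison, NASH against Control, asked how the liver changed on the Ath diet. Every one of the 10 genes had a lower fitted level in NASH after TMM, and the 4 genes Ces1b, Ces1d, Ces1e and Ces1f were lower by the most. Their fitted level in NASH was 21.8% to 38.3% of that in Control. Ces1c, Ces2a, Ces3a, Ces3b and Ces4a were at 46.5% to 66.6% of Control, and Ces1g was at 83.1%. The median log2 fold change of the members was -0.91, beside 0.013 for all 13619 genes tested. Of the members, 5 passed the thresholds of the study (an adjusted p below 0.05 with a log2 fold change beyond 1 in either direction), all of them lower, where 3.03% of all genes were called lower and 15.3% higher. Control and NASH did not overlap in CPM in 9 members, all lower in NASH, where this held for 22.2% of all genes in the lower and 27.4% in the higher direction. The members were chosen with this contrast known, so nothing is read from these counts.

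Among the Ces1 genes that hydrolyse triacylglycerol, Ces1d had 916, 1198 and 517 CPM in Control and 252, 123 and 199.5 CPM in NASH. Its lowest Control mouse was thus above its highest NASH mouse, and the log2 fold change was -2.19 (SE 0.40). Ces1f, a related lipid hydrolase of hepatocytes, had 368, 503 and 342 CPM in Control and 108, 59.4 and 145 CPM in NASH, again without overlap, with a log2 fold change of -1.95 (SE 0.32). Ces1g, whose product hydrolyses triacylglycerol and cholesteryl ester in the liver, behaved differently from both. It had 153, 230.3 and 118 CPM in Control and 169, 118 and 129 CPM in NASH, so the groups overlapped. Its log2 fold change was -0.27 (SE 0.24) after TMM, but 0.11 with library size alone, 0.20 on TPM and 0.02 without Control replicate 4.

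Ces1e encodes egasyn, the protein that holds beta-glucuronidase in the endoplasmic reticulum. Its level was 149, 191 and 121 CPM in Control and 48.2, 31.8 and 46.6 CPM in NASH, with a log2 fold change of -1.87 (SE 0.22). No NASH mouse reached the level of any Control mouse. Ces1b had 114, 127 and 76.6 CPM in Control and 41.0, 39.4 and 41.0 CPM in NASH, a log2 fold change of -1.39 (SE 0.17), and the 3 NASH mice lay close together. Ces1c had 2822, 3218 and 2221 CPM in Control and 1920, 1399 and 1844 CPM in NASH, a smaller log2 fold change of -0.68 (SE 0.19), and in TPM its groups overlapped. The ratio of Ces1b to Ces1c in TPM was 0.0385, 0.0376 and 0.0329 in Control and 0.0204, 0.0269 and 0.0212 in NASH. These neighbours thus changed by unequal amounts, within the limit set by the reads that they share.

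In the second block, Ces2a, an enzyme of xenobiotic and acylglycerol hydrolysis, had 408, 516 and 301 CPM in Control and 239, 117 and 214 CPM in NASH, a log2 fold change of -1.10 (SE 0.29) without overlap. It no longer passed the thresholds without Control replicate 4 (-0.92) or without NASH replicate 19 (-0.89). Ces3a had 1675, 2449 and 1427 CPM in Control and 1141, 1303 and 1251 CPM in NASH, a log2 fold change of -0.59 (SE 0.22). Ces3b had 345, 492 and 321 CPM in Control and 303, 182 and 223 CPM in NASH, a log2 fold change of -0.71 (SE 0.22). For both genes the groups were apart in CPM but overlapped in TPM, where the differences were -0.09 and -0.24 on the log2 scale. Ces4a had 1.29, 1.28 and 1.53 CPM in Control and 0.956, 0.504 and 1.11 CPM in NASH, from 13 to 30 counts per mouse, and a log2 fold change of -0.68 (SE 0.43), or -0.44 without NASH replicate 19.

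On TPM, where the median of all genes was itself raised, Ces1b, Ces1d, Ces1e, Ces1f and Ces2a still had no overlap between Control and NASH, and Ces1d, Ces1e and Ces1f still passed both thresholds. Single mice shaped the ranges. Control replicate 4 had the highest CPM of the Control mice in 9 of the 10 members and Control replicate 29 the lowest in the same 9, Ces4a being the exception. NASH replicate 19 had the lowest CPM of the NASH mice in every member but Ces3a. Control replicate 4 also had the lowest TMM factor of the 9 libraries and NASH replicate 19 the highest (0.80 and 1.23), and the part of the scaling in these ranges was not tested. Ces1b, Ces1d, Ces1e and Ces1f passed the thresholds whichever single mouse of this comparison was left out. They were picked with this contrast known, so these passes are a description and no test.

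**Figure D3:**
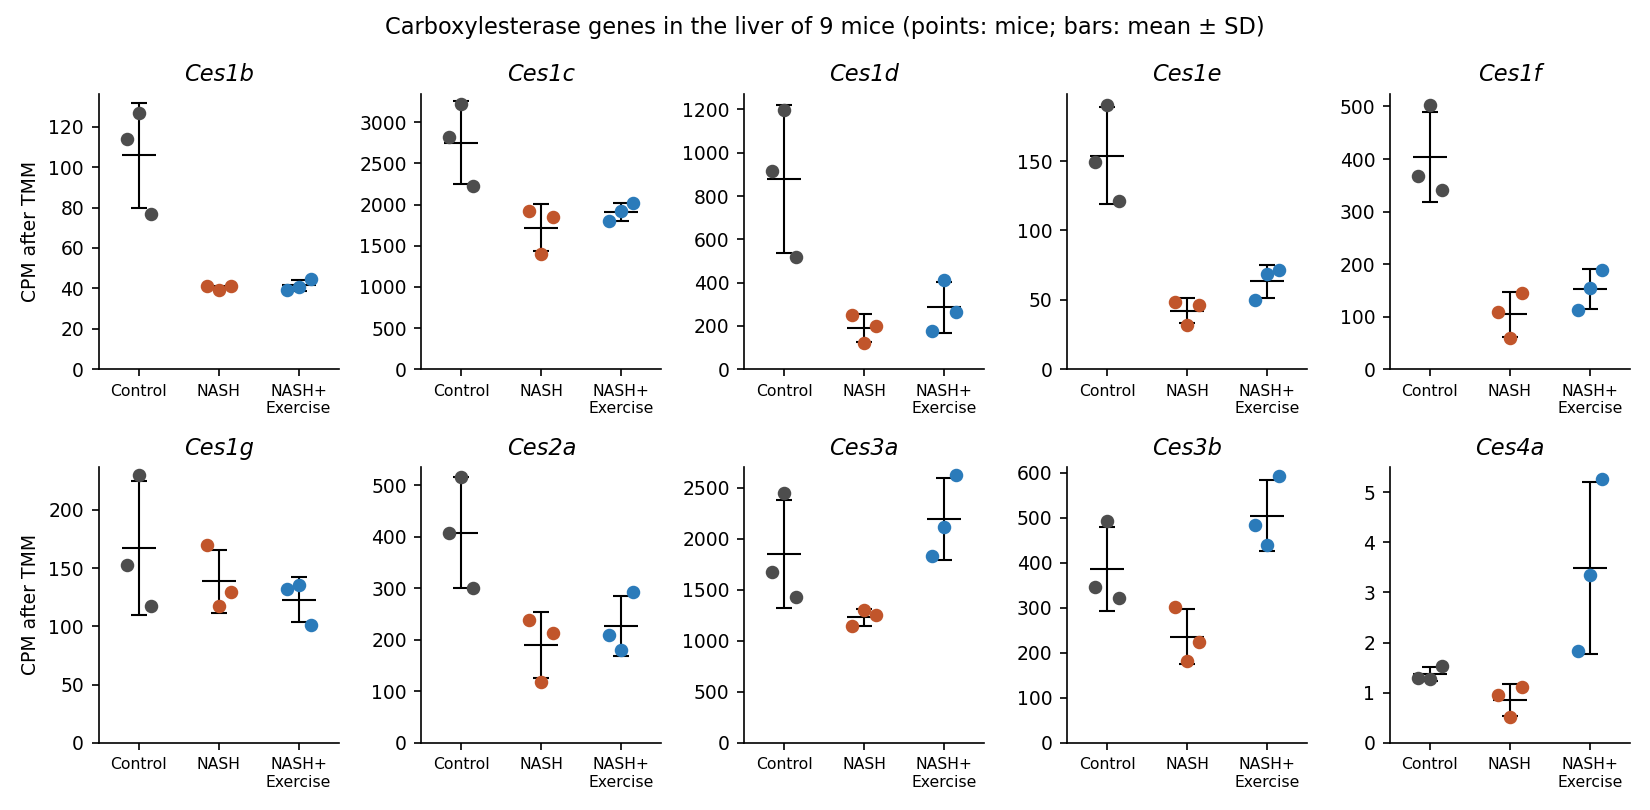
CPM after TMM of each of the 10 genes, one panel per gene with its own axis from 0; points are mice and the black bars are the mean ± SD of 3 mice. Ces1b, Ces1d, Ces1e and Ces1f are low in both Ath diet groups (Ces1d at 517 to 1198 CPM in Control and 123 to 413 in the others), while Ces3a, Ces3b and Ces4a are higher in NASH+Exercise than in NASH.

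The second comparison, NASH+Exercise against NASH, asked what treadmill training changed on the same diet. Ces3a, Ces3b and Ces4a, which lie next to each other on the chromosome, had the higher levels in the trained mice, by 1.78, 2.14 and 4.06 times in fitted level. In these genes the groups had no overlap in CPM or in TPM. Their adjusted p in the edgeR fit was 0.143, 0.108 and 0.107. Ces3b and Ces4a thus passed the threshold on fold but not that on adjusted p. Ces1b and Ces1c were at 103% and 111% of their fitted NASH level. With edgeR, 0 members passed the thresholds, where 0.103% of all genes were called higher and 0.0367% lower. An unadjusted p under 0.05 in the edgeR fit was reached by 4 members, and limma on TPM called 0. DESeq2, the tool named by the study, called 2 on the 6 mice (Ces3b and Ces4a). Of 104 genes in lists outside the family, described below, 21 reached such an unadjusted p. DESeq2 called 4 of these 104 and limma on TPM 2. Shares of all genes were not counted for the unadjusted p or for DESeq2. The groups did not overlap in CPM in 4 members, all higher after training, where 9.16% of all genes were apart in the higher and 14.9% in the lower direction. Nothing is read from these counts either. The median log2 fold change was 0.56 for the members and -0.03 for all genes.

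Ces3a had 1834, 2119 and 2630 CPM in NASH+Exercise, against 1141 to 1303 CPM in NASH, a log2 fold change of 0.83 (SE 0.22), and 0.52 on TPM. Ces3b had 483, 438 and 592 CPM in NASH+Exercise, against 182 to 303 CPM in NASH, a log2 fold change of 1.10 (SE 0.23), and 0.81 on TPM. The sum of both copies, which an exchange of shared reads between them leaves nearly as it is, was 2374, 2313 and 2617 TPM after training and 1545, 1843 and 1578 TPM in NASH. Ces4a had 1.83, 3.35 and 5.26 CPM in NASH+Exercise, from 42, 71 and 108 counts, against 0.504 to 1.11 CPM in NASH. Its log2 fold change was 2.02 (SE 0.41), and its trained mice were spread the widest. Without NASH+Exercise replicate 8 it was 2.34 and passed the thresholds, and without replicate 22 it was 1.60. With limma on log2(TPM + 1) it was 0.91, and the log2 ratio of the mean TPM was 1.70. Ces4a shares no stretch of 50 bases with other genes and belongs to the list of genes that the study used as its signature of the thyroid hormone T3. Any part of T3 in the level of Ces4a was not tested.

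Among the Ces1 genes, Ces1d, Ces1e and Ces1f had log2 fold changes of 0.54 to 0.59 after training, and Ces1b, Ces1c and Ces1g were nearer to their NASH levels. Ces1e was the only one of them whose groups did not overlap in CPM, at 49.6, 68.9 and 71.6 CPM in NASH+Exercise, a log2 fold change of 0.59 (SE 0.22), and in TPM they did overlap. Ces1d had 179, 413 and 264 CPM in NASH+Exercise (log2 fold change 0.57, SE 0.39) and Ces1f had 113, 154 and 189 CPM (0.54, SE 0.31), both overlapping with NASH. Ces1b had 39.2, 40.7 and 44.5 CPM, a log2 fold change of 0.04 (SE 0.17), with the opposite sign on library size (-0.17), on TPM (-0.26) and without NASH+Exercise replicate 22 (-0.01). Ces1c was 0.15 higher (SE 0.18) after TMM but -0.04 on library size and -0.14 on TPM. Ces2a was 0.26 higher (SE 0.29) after TMM and at -0.01 on TPM. Ces1g was lower by all of these scalings (-0.17 after TMM, SE 0.24), with 132, 136 and 101 CPM and overlap with NASH. In TPM, Ces1b and Ces1g had no overlap and were lower after training, at 33.6 to 37.2 against 40.3 to 44.0 TPM and at 64.1 to 105 against 106 to 144 TPM.

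**Figure D4:**
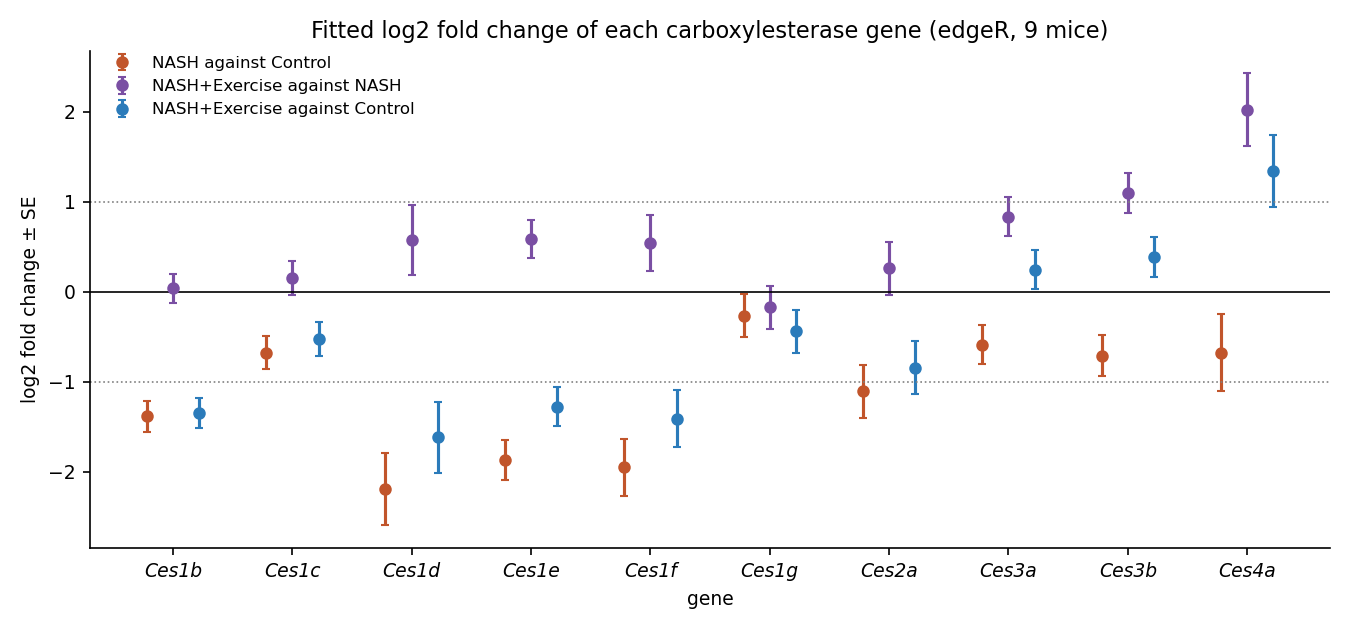
Fitted log2 fold change of the 10 genes in the 3 comparisons, as points with bars of 1 SE, from the edgeR fit of all 9 mice; dotted lines mark an absolute log2 fold change of 1. NASH against Control is lowest at Ces1d (-2.19), NASH+Exercise against NASH is highest at Ces4a (2.02), and the comparisons with Control share the Control mice.

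The third comparison set the trained mice against chow-fed Control mice. It shares its mice with both other comparisons, so its values are given side by side with theirs. Ces1b, Ces1d, Ces1e and Ces1f were still lower than in Control, at 32.5% to 41.2% of the fitted Control level, with log2 fold changes of -1.35 (SE 0.17), -1.62 (SE 0.39), -1.28 (SE 0.22) and -1.41 (SE 0.31). No trained mouse overlapped with a Control mouse in any of the 4 genes. Ces1c (-0.53, SE 0.19) and Ces2a (-0.84, SE 0.29) were also lower without overlap. Ces1g (-0.44, SE 0.24) overlapped.

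Ces3a and Ces3b were not lower than in Control. Their log2 fold changes were 0.25 (SE 0.22) and 0.39 (SE 0.22), with overlap in CPM, where Control replicate 4 reached into the trained range. In TPM the 3 trained mice were above all Control mice in both genes, for Ces3a at 1899 to 2184 TPM against 1366 to 1694 TPM. Ces4a was 1.34 higher (SE 0.40) on the log2 scale without overlap. In all, 5 members passed the thresholds, Ces4a higher and Ces1b, Ces1d, Ces1e and Ces1f lower, where 10.4% of all genes were called higher and 3.07% lower. Groups without overlap in CPM were found in 1 member in the higher and 6 in the lower direction, beside 21.5% and 17% of all genes, and the median of the members was -0.69 beside 0.003. The call of Ces4a was lost without Control replicate 3 (1.30), 4 (1.32) or 29 (1.42) and without NASH+Exercise replicate 18 (1.37) or 22 (0.92). It was also lost with limma on TPM (0.78). That of Ces1d was lost without Control replicate 4 (-1.30). Ces2a passed the thresholds without Control replicate 29 (-1.05) or NASH+Exercise replicate 22 (-1.07). Ces1b, Ces1e and Ces1f passed whichever single mouse of this comparison was left out, as a description of genes picked with their values known.

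Across the 9 mice the members fell into sets that varied together in log2 CPM, as a description that includes the differences between the diet groups. Ces1b, Ces1c, Ces1d, Ces1e and Ces1f had pairwise Pearson r from 0.894 to 0.980, and Ces2a had 0.855 to 0.967 with them. Ces3a, Ces3b and Ces4a had r of 0.866, 0.749 and 0.82 among each other. Between Ces3a and the first 5 genes r was only 0.298 to 0.497. Ces1g, with at most 0.657 to any member, followed neither set. The sets do not match the blocks on the chromosome, since Ces2a of the second block followed the Ces1 genes.

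The genes outside the family with the most similar pattern over the 9 mice were likewise named by Pearson r of log2 CPM, the points sharing the diet groups and the scaling. For Ces1e these were Mtch2 (0.997), Cat (0.995), which encodes catalase, and Tmem183a (0.994). Ces1f was nearest to Adipor2 (0.992), an adiponectin receptor, Ces1b to Sdsl (0.992), Ces1c to Hdgf (0.988) and Ces1d to Tspan33 (0.987). Ces3a was nearest to Rarres1 (0.995) and Ugt2b1 (0.986), a glucuronosyltransferase gene. For Ces2a it was Naxd (0.984), for Ces4a Lifr (0.955), for Ces3b Car3 (0.949) and for Ces1g Mta1 (0.939).

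Of 9 further carboxylesterase genes, 8 were in the tables and 5 (Ces2b, Ces2c, Ces2e, Ces2f and Ces2g) had enough counts to be tested. With edgeR, 0 of the 5 passed both thresholds in any comparison, while in each comparison 1 had an unadjusted p under 0.05. DESeq2 called 0 in each comparison, and limma on TPM called Ces2g in NASH against Control. Ces2g was the gene that lay higher on the Ath diet, at 27.9, 36.5 and 23.8 CPM in Control, 52.0, 41.7 and 43.7 CPM in NASH and 48.7, 39.7 and 61.6 CPM in NASH+Exercise, with no overlap between Control and either other group. Its log2 fold change was 0.64 (SE 0.19) in NASH and 0.77 (SE 0.19) in NASH+Exercise against Control, with adjusted p of 0.0251 and 0.0150 (edgeR, adjusted over all genes tested), so only the fold was short of its threshold.

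Ces2c, a liver and gut lipase of the Ces2 group, had 40.9, 39.5 and 19.3 CPM in Control, 18.99, 15.6 and 17.98 CPM in NASH and 29.02, 24.6 and 88.2 CPM in NASH+Exercise. NASH+Exercise replicate 22 set most of its mean, and the log2 fold change against NASH was 1.43 (SE 0.47, adjusted p = 0.222 in the edgeR fit). In CPM the same mouse was also the highest of its group for Ces3a, Ces3b and Ces4a, and its library had the lowest TMM factor of the group (0.912). In TPM, Ces3b was highest in replicate 8, at 475 against 433 TPM in replicate 22. Ces2e had 88.4 to 188 CPM, Ces2b 4.95 to 13.7 CPM and Ces2f 2.34 to 4.63 CPM, with overlapping groups in every comparison. Ces1a had at most 6.01 estimated counts per mouse, Ces1h at most 2.54 and Ces2h at most 9.01. Ces2h had 0, 1 and 1 counts in Control and 3 to 9.01 in the mice on the Ath diet.

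Beyond the family, other esterases and neutral lipid hydrolases were examined, 15 of 16 with enough counts. On the Ath diet 2 rose and 4 fell, beside 9 that did not pass, with a median log2 fold change of -0.48. Lpl, lipoprotein lipase, rose by 4.40 on the log2 scale (SE 0.43), from 11.9 ± 5.13 to 252 ± 106 CPM (SD, n = 3 each). Mgll, monoacylglycerol lipase, fell by 1.92 (SE 0.24), Pon1, the paraoxonase of high density lipoprotein, fell by 1.34 (SE 0.15), and Lipg, endothelial lipase, fell by 2.51 (SE 0.47). For trained against Control mice again 2 rose and 4 fell, among them Nceh1, neutral cholesterol ester hydrolase, which fell by 1.74 (SE 0.13). Of the proteins that retain esterases and other proteins in the endoplasmic reticulum, 1 of 4 changed in NASH, the KDEL receptor gene Kdelr3, which rose by 3.50 (SE 0.62) from a level below 0.1 CPM.

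Of 15 nuclear receptors and transcription factors of hepatocytes tested, 12 had a lower fitted level in NASH than in Control, beside 6672 of all 13619 genes. Of the 15, 8 were lower without overlap in CPM, beside 22.2% of all genes. At an unadjusted p under 0.05 there were 9, but 0 rose past the thresholds and 1 passed in the lower direction, Nr1i3, which encodes the xenobiotic receptor CAR and fell by 1.007 (SE 0.22). Limma on TPM called 0 of the 15 in this comparison. For trained against Control mice, Nr1i3 fell by 1.13 (SE 0.22) and Nr1i2, which encodes the receptor PXR, fell by 1.011 (SE 0.16). Of 10 pericentral genes, those expressed around the central vein, 0 rose and 5 fell in NASH, where 3.03% of all genes were called lower. Among them were Oat, which fell by 1.84, Axin2, which fell by 1.32, and Cyp2e1, which fell by 1.203. Limma on TPM called 1 of the 10 in this comparison, so most of these calls depended on the setting. Of 10 periportal genes, 2 rose (Cdh1 by 1.64 and Ctsc by 1.36) and 1 passed in the other direction, Gls2, which fell by 1.11. Which cells the RNA of Cdh1 and Ctsc came from was not determined. In fitted level 7 of the 10 periportal genes were lower in NASH and 3 higher, with a median log2 fold change of -0.53. For trained against Control mice 3 pericentral genes fell, where limma on TPM called 1 of the 10. Of the periportal genes 2 rose and 1, Pck1, fell by 1.70. The summed level of the pericentral list was 13750 to 19863 CPM in Control, 6224 to 8079 CPM in NASH and 8706 to 11191 CPM in NASH+Exercise. That of the periportal list was 10279 to 12232 CPM in Control, 5084 to 7129 CPM in NASH and 5525 to 8851 CPM in NASH+Exercise.

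Markers of other liver cells moved between the groups alongside the members. In NASH against Control, 8 of 8 macrophage, 5 of 6 neutrophil, 5 of 5 T and NK cell, 4 of 7 stellate cell, 2 of 6 sinusoidal endothelial and 3 of 5 cholangiocyte markers rose, and 0 of any of these lists fell. Summed macrophage markers were at 92.3 to 169.7 CPM in Control, 1039 to 1148 CPM in NASH and 775 to 926 CPM in NASH+Exercise. For stellate cell markers the ranges were 124 to 228, 385 to 569 and 232 to 336 CPM, for neutrophil markers 5.42 to 6.84, 46.1 to 51.3 and 30.1 to 43.3 CPM, and for cholangiocyte markers 36.1 to 43.9, 108 to 396 and 75.5 to 103 CPM. Spp1, one of these cholangiocyte markers, alone had 171 ± 148 CPM in NASH (SD, n = 3). Krt19 and Epcam averaged 3.63 and 5.54 CPM there. The ranges were 2.2004 to 3.83, 13.0 to 15.99 and 7.21 to 10.6 CPM for T and NK cell markers and 80.8 to 146, 122 to 198 and 128 to 158 CPM for sinusoidal endothelial markers. Of the B cell markers 0 of 5 were called by edgeR, with 1 at an unadjusted p under 0.05, and 1 called by limma on TPM, at 5.15 to 8.52, 6.67 to 13.1 and 4.24 to 9.34 CPM. The only adipocyte marker tested, Cidec, fell by 2.16 (SE 0.46), and the 4 of 6 adipocyte markers in the tables summed to 10.2 to 34.7, 2.95 to 6.93 and 2.55 to 3.17 CPM. Of the markers that were in the tables, 0 were at 0 in all 9 libraries, while 1 hepatocyte, 1 T and NK cell and 2 adipocyte markers were not examined.

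Hepatocyte markers had a median log2 fold change of -0.52 in NASH, with 0 of 7 called by edgeR, 4 at an unadjusted p under 0.05 and 1 called by DESeq2. Ces1b, Ces1d, Ces1e, Ces1f and Ces2a had fold changes of -1.10 or lower, and Ces1c, Ces3a, Ces3b and Ces4a between -0.71 and -0.59. Ces1g fell less than the marker median, at -0.27 after TMM, and was at 0.20 on TPM. In pieces of whole liver, fewer hepatocytes and less RNA of a gene per hepatocyte cannot be told apart, and the part of cell composition in the values of the members was not tested. In NASH+Exercise against NASH, 0 of 104 genes of the lists outside the family were called by edgeR, with 21 at an unadjusted p under 0.05, 4 called by DESeq2 and 2 by limma on TPM. In NASH+Exercise against Control 25 of them rose and 11 fell, beside 32 and 12 in NASH against Control. With library size alone the latter split was 34 and 4, and on TPM 35 and 4, so the number of listed genes that fell depended on the scaling.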

How the data were processed

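Liver RNA was sequenced as 1 mRNA library per mouse in 9 mice. For every gene the authors deposited estimated counts, which are not normalized and in 29.0 to 32.8% of cases not whole, and TPM and FPKM, which are scaled to transcript length and library size. The processing notes of the submitters name HISAT2 2.1.0, Bowtie2 2.2.5, RSEM 1.2.8 and GRCm38.p6, without their roles. FPKM was not used. A table of all mice repeated 428304 values of the single files, and 0 differed. Symbols and positions came from RefSeq (GRCm38.p6; 17728 of 17846 identifiers matched), and transcripts from GENCODE.

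Counts were rounded and fitted with edgeR 4.0.16 in R 4.3.3 (filterByExpr by group with at least 10 counts and a total of 15, TMM, robust quasi-likelihood test, all 9 mice, Benjamini-Hochberg adjustment over 13619 genes). Calls needed an adjusted p below 0.05 with a log2 fold change beyond 1 in either direction. Log2 CPM used a prior count of 2. DESeq2 1.42.0, limma 3.58.1 on log2(TPM + 1), other scalings and leaving out single mice were alternatives. Sequences were aligned with Biopython 1.88.

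The members and gene lists were chosen with earlier results of these data known. Named are all members and family genes, up to 4 called genes of each other list with the largest change, and the genes outside the family most correlated with each member. Some genes of the lists, such as Cidec, are also expressed by hepatocytes. In whole liver, the cell type that gave the RNA of a listed gene was not determined.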

Additional observations from a re-analysis of the deposited data

How the results depend on the processing

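Of 360 values of the members' log2 fold changes under other settings, 351 kept their sign and 21 moved by more than 1 SD between mice. The 9 others belong to Ces1g in NASH against Control and to Ces1b, Ces1c and Ces2a in NASH+Exercise against NASH, and no called value changed sign. The members called in NASH against Control were 5, but 3 by limma on TPM, and 4 to 5 when single mice were left out. In NASH+Exercise against NASH they were 0, but 2 by DESeq2, and 0 to 1 without single mice, with Ces4a called without NASH+Exercise replicate 8. In NASH+Exercise against Control they were 5, but 4 by limma on TPM, and 3 to 5 without single mice. Of the other carboxylesterase genes 0 were called, but 1 in NASH against Control with library size alone, on TPM or by adjusted p alone (Ces2g) or without a filter (Ces2h), and 1 in NASH+Exercise against Control without a filter (Ces2h) or by adjusted p alone (Ces2g). Of the other lists in NASH+Exercise against NASH, 0 were called, but 4 by DESeq2 and 2 by limma on TPM. The summed level of the members had log2 ratios of -0.39, 0.20 and -0.19 on TPM for NASH to Control, NASH+Exercise to NASH and NASH+Exercise to Control, and of -0.87, 0.50 and -0.37 on CPM after TMM. The cause of these differences was not tested. No paired analysis was possible because the groups share no replicate number. Of the members, Ces4a is limited by depth, with 13 to 108 counts per mouse.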
